A study of Arabidopsis thaliana with 36 samples.

Results

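In *Arabidopsis thaliana* roots, 180 genes were higher in the *otu5* mutant than in the wild type (WT) on both media tested. They were chosen by their measured values. A gene had to reach at least 1 RPKM in 3 or more of the 12 RNA libraries (RPKM is a read level scaled for gene length and for the mapped reads of the library). On control medium and again on medium low in phosphate (low Pi), its mean log2(RPKM + 0.5) had to be at least 0.58 higher in *otu5* than in WT, which is a ratio of 1.49 on that scale, and its lowest *otu5* value had to lie above its highest WT value. Of 33557 genes in the deposited table, 20411 passed the filter and 180 of these met the rule on both media (0.882%). Taken by medium, 335 genes met it in low Pi (1.64%) and 511 on control medium (2.50%). Because the rule used the difference between genotypes, every *otu5* to WT difference of the 180 genes is a description and carries no test.

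The study asked what the deubiquitinating enzyme OTU5 does in root development and in the root's response to Pi starvation. The 4 groups were *otu5* mutant roots on low Pi, WT roots on low Pi, *otu5* mutant roots on control medium and WT roots on control medium, with 3 libraries each. All plants were grown on plates in continuous light at 21 °C and their roots were taken 14 days after germination, and libraries of polyadenylated RNA were read at 100 bp. Groups follow the library titles, with which the label for the culture condition is at odds in 6 of the 12 libraries. The labels give neither the *otu5* allele nor whether roots of several plants were pooled, and the RNA isolation text names rosette leaves while the tissue label names root. Whether replicates came from separate cultures is not stated either, so the p-values reflect nothing more than variation among these 12 libraries, possibly only technical variation.

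OTU5 belongs to the ovarian tumour family of deubiquitinases, proteases that take ubiquitin off other proteins. Several of the 180 genes belong to well-studied programmes. In tissue short of oxygen, plants stabilise group VII ethylene response factors, split sucrose with sucrose synthase and ferment pyruvate to ethanol. When mitochondria are disturbed, NAC transcription factors of the endoplasmic reticulum membrane, NAC13 among them, switch on bypass dehydrogenases and detoxifying enzymes. In carbon-starved tissue, asparagine synthetase and enzymes of sugar and amino acid breakdown are made.

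The mutated gene itself was low in each *otu5* library. OTU5 (AT3G62940) had 0.432, 0.999 and 1.0 RPKM in *otu5* low Pi roots, against 40.6, 38.9 and 40.2 RPKM in WT low Pi roots. On control medium it had 1.33, 1.71 and 1.04 RPKM in *otu5* roots, against 43.1, 40 and 39.6 RPKM in WT roots. Of the 15 tested loci within 10 places of OTU5 in gene order, 0 were among the 180.

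The libraries were not level in these genes even within a group. Among the 180 genes, WT low Pi replicate 1 held the lowest of the 3 WT low Pi values for 136, and WT control replicate 1 held the lowest WT control value for 120. The median deviation of the 180 genes from their own group mean was -0.26 and -0.16 (log2) in those libraries, while over all tested genes it was 0 in both. Without WT low Pi replicate 1 the rule found 144 genes, and without WT control replicate 1 it found 175. Without WT low Pi replicate 3, in which the 180 genes stood highest of the WT low Pi libraries, it found 247. Summed RPKM of 28 photosynthesis genes, which mark green shoot tissue, ranged over 2090 to 2150 in *otu5* low Pi, 1630 to 2070 in WT low Pi, 2800 to 3030 in *otu5* control and 2060 to 2550 in WT control roots, and 26 of the 28 were at 1 RPKM or more in every library of every group. This sum was lowest in the same WT library of each medium as the 180 genes. The 17 root markers summed to 5170 to 5240, 5140 to 5590, 5490 to 6380 and 5150 to 6390 RPKM in the same order of groups, and at least 16 of them were at 1 RPKM or more in every library. The 10 seed genes summed to at most 1.68 RPKM except in WT control replicate 1, at 36.2 RPKM. Whether these tissue signals had a part in the genotype differences was not tested, and in whole roots fewer cells of a type and less RNA per cell cannot be told apart.

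**Figure D1:**
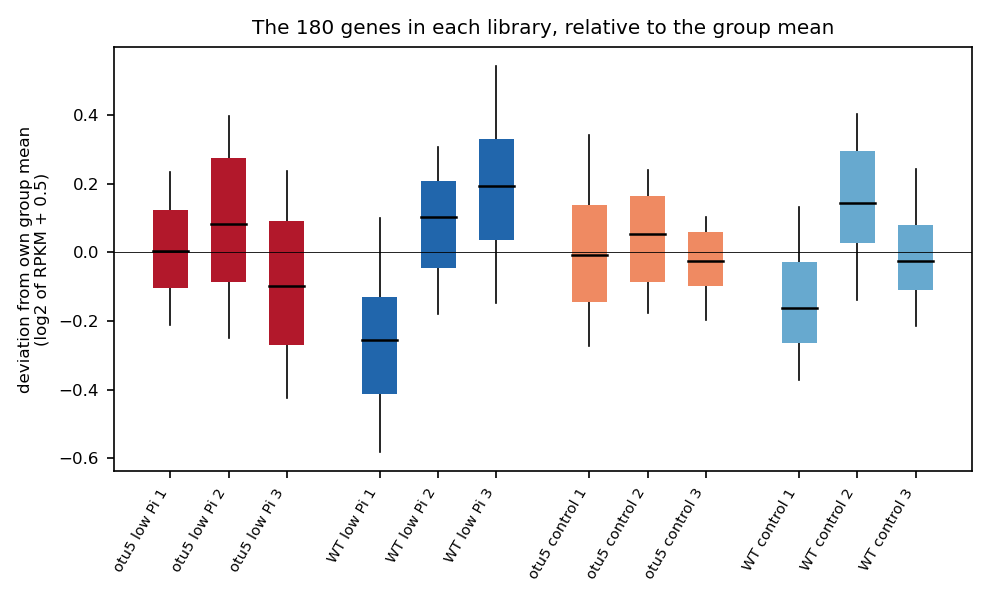
For each library, the spread of the 180 genes around their own group mean (log2 of RPKM + 0.5): the bar spans the middle of the distribution from the 25th to the 75th percentile, the thin line runs from the 10th to the 90th percentile and the black mark is the median. The medians of WT low Pi replicate 1 and WT control replicate 1 lie lowest, at -0.26 and -0.16, and that of WT low Pi replicate 3 lies highest, at 0.19.

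The size of the genotype difference was similar on the 2 media for most of the genes. In low Pi it ranged over 0.59 to 2.72 (log2, *otu5* minus WT) with a median of 0.91, and 71 genes reached 1. On control medium it ranged over 0.58 to 3.52 with a median of 1.0, and 89 genes reached 1. The difference was at least 1 on both media for 50 genes, and for 144 genes the 2 differences lay within 0.5 of each other. The difference was larger on control medium for 103 genes and larger in low Pi for 77. In limma's fit over all 20411 genes, 135 of the 180 were also called higher in *otu5* in low Pi, beside 4.00% of all genes tested, and 149 on control medium, beside 4.85%. The rule used these contrasts, so nothing is read from those counts.

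**Figure D2:**
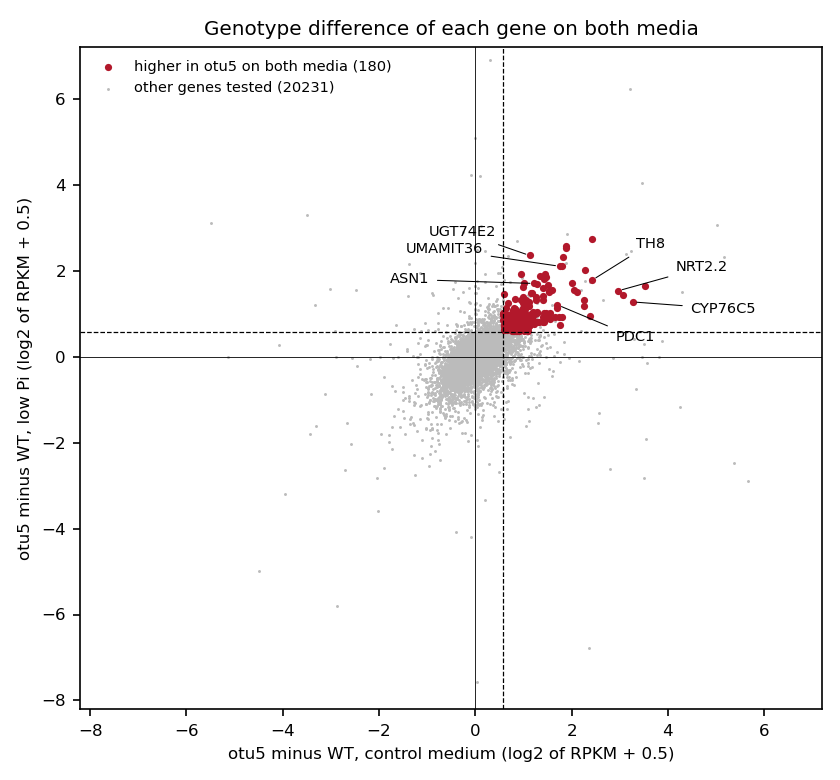
Difference *otu5* minus WT of each tested gene (log2 of RPKM + 0.5), on control medium along the horizontal axis and in low Pi along the vertical axis. Red points are the 180 genes and grey points all other genes tested, and dashed lines mark 0.58. The red points span 0.58 to 3.52 on control medium and 0.59 to 2.72 in low Pi, and grey points inside the upper right corner are genes whose *otu5* and WT libraries overlapped on at least 1 medium.

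By class, 173 of the 180 genes are protein-coding in RefSeq (96.6% of all tested genes are), 2 are long non-coding RNAs, 2 are small nucleolar RNAs, and 1 each is an antisense RNA, another non-coding RNA and a pseudogene. A gene symbol exists for 83, and 97 are known in the gene table by locus alone. They lay on all 5 nuclear chromosomes in numbers of 51, 32, 32, 24 and 41 from chromosome 1 to chromosome 5, which are 28.3%, 17.8%, 17.8%, 13.3% and 22.8% of the set, beside 26.4%, 15.1%, 19.7%, 15.2% and 23.3% of the tested genes. Their mean level over all libraries ranged over 0.604 to 1180 RPKM with a median of 7.92 RPKM, beside a median of 15.6 RPKM over all tested genes. A mean level under 5 RPKM was found for 71 of them (39.4%, beside 20.9% of tested genes), and a mean level of 100 RPKM or more for 25 (13.9%, beside 8.23%). In 39 of the genes fewer than 3 WT libraries reached 1 RPKM, so these passed the filter only with the help of *otu5* libraries.

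Genes of the low-oxygen response included some of the highest levels in the set. PDC1 (AT4G33070), the pyruvate decarboxylase that opens ethanolic fermentation, was 2.19-fold higher in *otu5* than in WT low Pi roots and 3.26-fold higher on control medium by group means. SUS1 and SUS4, sucrose synthases that split sucrose for glycolysis, were 1.62-fold and 1.73-fold higher in low Pi and 2.13-fold and 2.63-fold higher on control medium. The list of 13 core low-oxygen genes contributed 6 of the 180 genes, for which the rule fixed the direction. The other 7 also had a positive difference on both media, as had 7758 of the 20411 tested genes.

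PDC1 had 421, 518 and 569 RPKM in *otu5* low Pi roots, against 134, 256 and 300 RPKM in WT low Pi roots, and 591, 771 and 603 RPKM in *otu5* control roots, against 169, 237 and 196 RPKM in WT control roots. SUS4 (AT3G43190) had 374, 404 and 470 RPKM in *otu5* low Pi and 187, 267 and 269 RPKM in WT low Pi, and 533, 678 and 565 RPKM in *otu5* control and 188, 273 and 215 RPKM in WT control. SUS1 (AT5G20830) had 275, 296 and 319 RPKM in *otu5* low Pi and 134, 196 and 220 RPKM in WT low Pi, and 348, 448 and 377 RPKM in *otu5* control and 169, 201 and 180 RPKM in WT control. In all 3 genes the *otu5* low Pi libraries lay below every *otu5* control library and above every WT library, while the WT libraries of the 2 media overlapped. The log2 differences of PDC1, SUS4 and SUS1 were 1.2, 0.8 and 0.72 in low Pi and 1.71, 1.4 and 1.09 on control medium.

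HB1 (AT2G16060), a class 1 haemoglobin that scavenges nitric oxide, was among the 3 genes of the set with the highest level. HB1 had 842, 882 and 774 RPKM in *otu5* low Pi, 329, 565 and 603 RPKM in WT low Pi, 934, 992 and 898 RPKM in *otu5* control and 406, 677 and 509 RPKM in WT control roots. WT low Pi replicate 1 was again the lowest library, and the *otu5* low Pi libraries all lay below those of *otu5* control. PCO2 (AT5G39890), a plant cysteine oxidase that marks group VII ethylene response factors for breakdown when oxygen is present, had 122, 115 and 127 RPKM in *otu5* low Pi, 60.6, 87.2 and 97.2 RPKM in WT low Pi, 141, 160 and 140 RPKM in *otu5* control and 77, 97.1 and 87.2 RPKM in WT control. HRE2 (AT2G47520), itself a group VII ethylene response factor, had 65.9, 67.7 and 55.5 RPKM in *otu5* low Pi, 22.7, 29.8 and 42.8 RPKM in WT low Pi, 61.4, 66.8 and 64.3 RPKM in *otu5* control and 20.4, 34.5 and 25.7 RPKM in WT control. PCO2 and HB1 had differences of 0.59 and 0.79 in low Pi and 0.75 and 0.86 on control medium, and HRE2 had 1.02 and 1.27.

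LBD40 (AT1G67100), a LOB-domain transcription factor, had 16, 11.4 and 11.5 RPKM in *otu5* low Pi, 2.88, 4.48 and 8.33 RPKM in WT low Pi, 15.4, 19.4 and 13 RPKM in *otu5* control and 4.92, 5.61 and 6.35 RPKM in WT control roots. Its differences were 1.33 in low Pi and 1.41 on control medium. The invertase gene A/N-InvD and C/VIF1, which encodes an inhibitor of invertases, were grouped with these genes after their values were seen, and had differences of 0.7 and 0.87 in low Pi and 0.9 and 1.05 on control medium. In all 9 genes of this group the difference was larger on control medium than in low Pi, with medians of 1.09 and 0.8. That comparison of differences was not tested, because both were used to choose the genes.

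The other 7 low-oxygen genes of the list did not meet the rule. This list and the others used here were chosen with earlier results of these data known, so calls on them are a description. In limma's fit 5 of these 7 genes were called higher in *otu5* on control medium and 0 in low Pi, with 4.85% and 4.00% of all tested genes called in those contrasts. At an unadjusted p under 0.05 the counts were 6 and 5. ADH1, the alcohol dehydrogenase that completes ethanolic fermentation, had 961, 1170 and 1130 RPKM in *otu5* low Pi, 588, 971 and 928 RPKM in WT low Pi, 1400, 1690 and 1510 RPKM in *otu5* control and 714, 991 and 770 RPKM in WT control. The groups of ADH1 overlapped in low Pi by 1 WT library and did not overlap on control medium, where the log2 difference was 0.9 (SE 0.19, limma adjusted p = 0.016). The control-medium count of 5 was 2 without WT control replicate 1, *otu5* control replicate 2 or *otu5* control replicate 3. It was 3 without *otu5* low Pi replicate 1 or 3, without replicate 2 of WT low Pi, without *otu5* control replicate 1, or without replicate 2 or 3 of WT control. The low Pi count of 0 became 4 without WT low Pi replicate 3 and 1 without *otu5* control replicate 1 or *otu5* control replicate 2. These repeats were added after the data were seen.

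**Figure D3:**
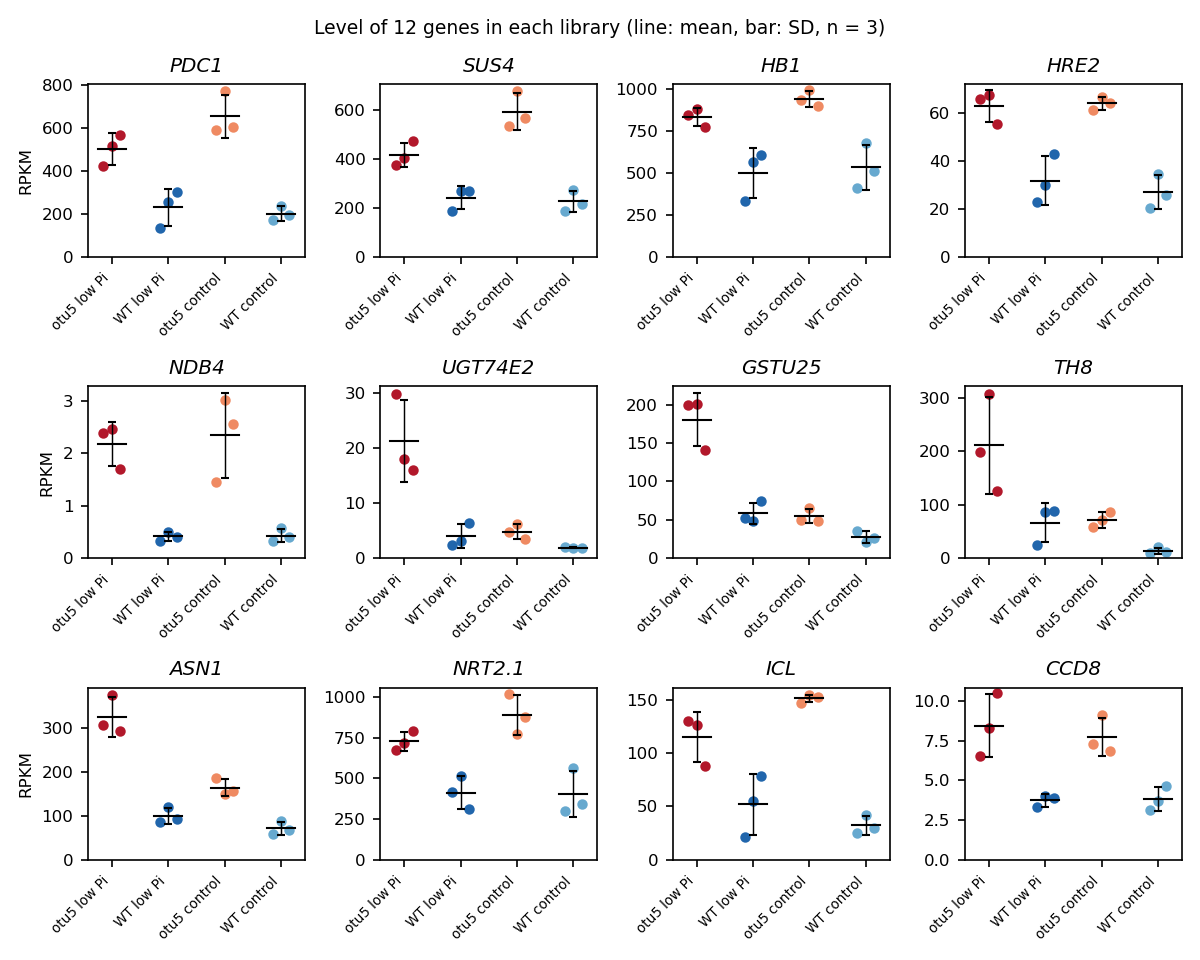
RPKM of 12 of the genes in every library, 1 panel per gene, with groups in the order *otu5* low Pi, WT low Pi, *otu5* control and WT control; points are libraries, lines are means and bars are SD (n = 3). PDC1, SUS4 and HB1 are lower in *otu5* low Pi than in *otu5* control, while UGT74E2, GSTU25, TH8 and ASN1 are highest in *otu5* low Pi, with UGT74E2 averaging 21.2 RPKM there and 3.93 RPKM in WT low Pi.

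Among 7 genes of mitochondrial stress, redox and detoxification, the difference was larger on control medium for 2, NDB4 and TH8, and larger in low Pi for the rest. UGT74E2 (AT1G05680), a glucosyltransferase that conjugates the auxin indole-3-butyric acid, was 5.41-fold higher in *otu5* than in WT low Pi roots and 2.57-fold higher on control medium. It was the only gene of the 180 whose difference was larger in low Pi by 1 or more on the log2 scale. The mitochondrial stress list held 11 tested genes, of which 4 belong to the set, and low Pi raised 7 of the 11 (9.65% of all tested genes were called in that direction) and lowered 0 (8.52%; limma, mean of both genotypes).

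UGT74E2 had 29.8, 17.9 and 16 RPKM in *otu5* low Pi, 2.29, 3.1 and 6.39 RPKM in WT low Pi, 4.8, 6.17 and 3.4 RPKM in *otu5* control and 1.97, 1.89 and 1.75 RPKM in WT control. *otu5* low Pi thus stood apart from all other libraries, and *otu5* control overlapped WT low Pi. The genotype difference was 2.35 in low Pi and 1.13 on control medium. Low Pi raised UGT74E2 by 1.41 on average over the genotypes (SE 0.23, limma adjusted p = 0.0031).

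NDB4 (AT2G20800) encodes an external NAD(P)H dehydrogenase of the mitochondrial inner membrane, which feeds electrons past complex I. NDB4 had 2.39, 2.46 and 1.7 RPKM in *otu5* low Pi, 0.329, 0.505 and 0.406 RPKM in WT low Pi, 1.45, 3.01 and 2.56 RPKM in *otu5* control and 0.316, 0.564 and 0.398 RPKM in WT control. No WT library reached 1 RPKM and each *otu5* library did, and the values on the 2 media overlapped in both genotypes. NAC13 (AT1G32870) had 18.9, 19.4 and 15.5 RPKM in *otu5* low Pi, 9.33, 8.79 and 10.6 RPKM in WT low Pi, 11.6, 14.8 and 13.6 RPKM in *otu5* control and 7.99, 9.12 and 7.53 RPKM in WT control, and low Pi raised it by 0.31 (SE 0.08, limma adjusted p = 0.023). The limma adjusted p of NAC13 lay between 0.051 and 0.059, past the threshold, when *otu5* low Pi replicate 1, *otu5* low Pi replicate 2, WT low Pi replicate 3 or WT control replicate 3 was left out. AT2G21640, the fourth gene of the list, had 42.9, 35.6 and 24.8 RPKM in *otu5* low Pi, 6.79, 10.5 and 10.9 RPKM in WT low Pi, 21.1, 27.2 and 22.2 RPKM in *otu5* control and 7.98, 8.69 and 8.4 RPKM in WT control.

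The mitochondrial stress list was also chosen with earlier results of these data known. Among the 7 genes of this list outside the set, SOT12, a sulfotransferase, had 55.7, 56.7 and 42 RPKM in *otu5* low Pi, 19, 22.5 and 24.5 RPKM in WT low Pi, 25, 28 and 22 RPKM in *otu5* control and 18.8, 17.8 and 17.5 RPKM in WT control. It failed the rule only on control medium, where its difference was 0.45. AOX1A, the alternative oxidase used as a standard marker of mitochondrial stress, had 55.9, 64.8 and 37.3 RPKM in *otu5* low Pi, 36.7, 35 and 36.8 RPKM in WT low Pi, 32.7, 27.6 and 27.9 RPKM in *otu5* control and 25.6, 24.4 and 24 RPKM in WT control. The differences of AOX1A were 0.5 in low Pi (SE 0.16, limma adjusted p = 0.072) and 0.24 on control medium (SE 0.16, limma adjusted p = 0.36). Of those 7 genes, 2 were called higher in *otu5* on each medium, SOT12 and NDB2, beside 4.00% of all tested genes in low Pi and 4.85% on control medium. On control medium that count fell to 0 without any of the 3 WT control libraries, any of the 3 *otu5* control libraries, WT low Pi replicate 2 or *otu5* low Pi replicate 1, and to 1 without WT low Pi replicate 1 or 3. In low Pi it was 1 without any of the 3 WT low Pi libraries, *otu5* low Pi replicate 1 or *otu5* low Pi replicate 2, and 4 without *otu5* low Pi replicate 3.

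GSTU25 (AT1G17180) was the only glutathione transferase of the set, out of 30 tested. It had 199, 201 and 141 RPKM in *otu5* low Pi, 51.9, 48.9 and 73.9 RPKM in WT low Pi, 49.7, 64.8 and 48.2 RPKM in *otu5* control and 35.4, 20.9 and 25.7 RPKM in WT control roots. The genotype difference was 1.63 in low Pi and 1.0 on control medium, and low Pi raised the gene by 1.4 (SE 0.16, limma adjusted p = 0.00047). Of the other 29 glutathione transferases, 0 were called higher in *otu5* on either medium (3 in low Pi and 1 on control medium at an unadjusted p under 0.05 in limma), 7 were called lower in low Pi (5.91% of all tested genes were) and 6 on control medium (5.52%), while over both genotypes low Pi raised 19 of them (9.65% of all tested genes were) and lowered 1 (8.52%). Related members of this family can share reads, and how such reads were counted is not given.

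TH8 (AT1G69880), an h-type thioredoxin, was the redox gene with the highest level in *otu5* low Pi roots. TH8 had 199, 307 and 126 RPKM in *otu5* low Pi, 24.3, 86.2 and 88.5 RPKM in WT low Pi, 57.2, 71 and 86.3 RPKM in *otu5* control and 9.7, 20 and 10.5 RPKM in WT control. *otu5* control and WT low Pi overlapped, with *otu5* low Pi above and WT control below both. Its genotype difference was 1.78 in low Pi and 2.43 on control medium, and low Pi raised it by 1.8 (SE 0.36, limma adjusted p = 0.0091).

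GLYI7, a glyoxalase I that removes methylglyoxal, and DOGT1, a glucosyltransferase of toxins and brassinosteroids, were taken into the group after their values were seen. GLYI7 had 17.1, 25.2 and 11.7 RPKM in *otu5* low Pi, 3.18, 3.85 and 5.7 RPKM in WT low Pi, 6.35, 6.51 and 5.16 RPKM in *otu5* control and 3.0, 3.44 and 2.29 RPKM in WT control. Low Pi raised GLYI7 by 0.95 (SE 0.19, limma adjusted p = 0.0068). DOGT1 reached 1 RPKM only in the 3 *otu5* low Pi libraries and so passed the filter on low values through that group alone, and its low Pi difference of 0.71 is given without a test. Of the 7 genes with these roles, GLYI7, GSTU25, UGT74E2, TH8 and NAC13 were called higher in low Pi, a direction called for 9.65% of all tested genes, and NDB4 was not called. This group was put together after values were seen, and its median genotype difference was 1.63 in low Pi and 1.0 on control medium. AT2G21640, of the mitochondrial stress list and the set, was left out of this group. It was not called for low Pi, with a difference of 0.32 (SE 0.15, limma adjusted p = 0.15).

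Nitrate uptake and amino acid genes formed the largest named group, with 15 genes. ASN1 (AT3G47340), the asparagine synthetase made in darkness and sugar shortage, was 3.25-fold higher in *otu5* low Pi than in WT low Pi roots and 2.31-fold higher on control medium. The high-affinity nitrate transporters NRT2.1 and NRT2.2 were also higher on both media. Apart from NRT2.1, NRT2.2, UMAMIT36 and BCAT-2, the genes of this group were named after their values were seen.

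ASN1 had 306, 376 and 292 RPKM in *otu5* low Pi, 86.5, 120 and 92.7 RPKM in WT low Pi, 186, 150 and 156 RPKM in *otu5* control and 57.8, 87.3 and 67.9 RPKM in WT control. The 2 genotypes were separated on both media, and within *otu5* all low Pi libraries lay above all control libraries. Low Pi raised ASN1 by 0.74 (SE 0.12, limma adjusted p = 0.0028).

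NRT2.1 (AT1G08090) had 676, 717 and 790 RPKM in *otu5* low Pi, 414, 512 and 310 RPKM in WT low Pi, 1020, 774 and 879 RPKM in *otu5* control and 300, 564 and 343 RPKM in WT control. Its neighbour NRT2.2 (AT1G08100) had 2.42, 2.23 and 1.72 RPKM in *otu5* low Pi, 0.27, 0.641 and 0.334 RPKM in WT low Pi, 6.59, 3.4 and 5.1 RPKM in *otu5* control and 0.104, 0.38 and 0.106 RPKM in WT control. The differences were 0.85 in low Pi and 1.19 on control medium for NRT2.1, and 1.53 and 2.97 for NRT2.2. The 2 loci lie next to each other on chromosome 1 and encode closely related proteins, so how their reads were split is uncertain. NIA2, a nitrate reductase, had 590, 639 and 558 RPKM in *otu5* low Pi, 324, 392 and 445 RPKM in WT low Pi, 505, 549 and 514 RPKM in *otu5* control and 293, 337 and 301 RPKM in WT control. NRT1.8, which takes nitrate back out of the xylem sap, had differences of 0.92 in low Pi and 0.69 on control medium, and NLP3 (AT4G38340), a NIN-like protein of the nitrate-sensing family, had 0.67 and 0.65.

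UMAMIT36 and UMAMIT14, of a family of membrane transporters for amino acids and related compounds, differed in which medium gave the larger genotype difference. UMAMIT36 (AT1G70260) had 93.2, 65.1 and 84.5 RPKM in *otu5* low Pi, 16.2, 21.1 and 17.8 RPKM in WT low Pi, 71.7, 61 and 68.5 RPKM in *otu5* control and 16.7, 25.9 and 17.3 RPKM in WT control. UMAMIT14 had 91.5, 46.8 and 98.9 RPKM in *otu5* low Pi, 32.6, 45.6 and 39.7 RPKM in WT low Pi, 129, 163 and 147 RPKM in *otu5* control and 17.2, 47.7 and 25.3 RPKM in WT control. The UMAMIT36 differences were 2.1 in low Pi and 1.75 on control medium, and those of UMAMIT14 were 0.94 and 2.38. In low Pi the lowest *otu5* library of UMAMIT14, at 46.8 RPKM, lay just above the highest WT library, at 45.6 RPKM.

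Enzymes of amino acid turnover were also in the set. ASP2, a cytosolic aspartate aminotransferase, differed by 0.6 in low Pi and 0.91 on control medium, and AlaAT1, an alanine aminotransferase, by 0.64 and 0.85. ERD5, the proline dehydrogenase that begins proline breakdown in mitochondria, differed by 0.61 and 0.6. BCAT-2, a branched-chain aminotransferase, differed by 0.84 and 0.58 and stood close to the limit of the rule. The amino acid permease AAP3, the amidotransferase gene GAT1_2.1 and the glutamate receptor gene GLR2.2 differed by 0.88, 1.31 and 0.73 in low Pi and by 0.63, 0.95 and 0.68 on control medium. Low Pi raised 6 of the 15 genes (NIA2, ASN1, BCAT-2, AAP3, GAT1_2.1 and NLP3), a direction called for 9.65% of all tested genes, and lowered 0 (8.52%), and the call of BCAT-2 was lost in 10 of the 12 repeats that left out a library.

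Sugar, starch and energy genes, 10 in number and all named after their values were seen, included ICL, the isocitrate lyase of the glyoxylate cycle. ICL had 130, 126 and 87.6 RPKM in *otu5* low Pi, 21.4, 55.3 and 78.3 RPKM in WT low Pi, 147, 154 and 152 RPKM in *otu5* control and 24.7, 42.2 and 29.5 RPKM in WT control, so that WT low Pi spread widely and *otu5* control did not. Its differences were 1.3 in low Pi and 2.25 on control medium. DIN2, a beta-glucosidase induced in darkness, had 57.8, 76.3 and 34.3 RPKM in *otu5* low Pi, 14.7, 22.1 and 21.4 RPKM in WT low Pi, between 16.5 and 22.2 RPKM in *otu5* control and 9.16, 16.2 and 11.8 RPKM in WT control. DIN2 was the only gene of this group called for low Pi, by 1.07 (SE 0.21, limma adjusted p = 0.0068). TRE1, the trehalase, and TPPJ, a trehalose-6-phosphate phosphatase, differed by 1.14 and 0.7 in low Pi and by 1.0 and 1.11 on control medium. DIN10 and SIP2, of the raffinose synthase family, differed by 0.95 and 0.82 in low Pi and by 0.74 and 0.64 on control medium. PMDH2, a peroxisomal malate dehydrogenase, GBSS1, a granule-bound starch synthase, UGE1, a UDP-glucose epimerase, and the aldehyde dehydrogenase ALDH11A3 made up the rest, with differences of 0.7 to 0.75 in low Pi and 0.68 to 1.05 on control medium.

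Hormone and peptide genes numbered 10, of which CLE40 alone falls under the naming rule. CCD7 and CCD8 encode the successive carotenoid cleavage enzymes of strigolactone synthesis. CCD8 had 6.55, 8.31 and 10.5 RPKM in *otu5* low Pi, 3.29, 4.0 and 3.92 RPKM in WT low Pi, 7.32, 9.11 and 6.85 RPKM in *otu5* control and 3.1, 3.7 and 4.63 RPKM in WT control. CCD7 had 1.15, 1.25 and 1.7 RPKM in *otu5* low Pi, 0.0965, 0.301 and 0.357 RPKM in WT low Pi, 1.18, 1.47 and 0.982 RPKM in *otu5* control and 0.0928, 0.198 and 0.348 RPKM in WT control. Both genes had similar differences on the 2 media, 1.32 and 1.27 for CCD7 and 1.06 and 0.94 for CCD8, and neither was called for low Pi (limma adjusted p of 0.7 and 0.85).

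Ethylene synthesis was represented by ACS2 and ACS7, which make the precursor ACC, and by the ACC oxidase gene ACO1. ACO1 had 245, 238 and 283 RPKM in *otu5* low Pi, 126, 161 and 191 RPKM in WT low Pi, 296, 374 and 290 RPKM in *otu5* control and 159, 197 and 175 RPKM in WT control. Low Pi raised ACS2 by 0.71 (SE 0.2, limma adjusted p = 0.033). CYP707A1, which breaks down abscisic acid, differed by 0.6 in low Pi and 0.84 on control medium, GH3.9, an amido synthetase of the auxin-conjugating family, by 0.77 and 0.95, and MES10, of the methylesterase family, by 1.18 and 2.26. PSK5, a precursor of the growth peptide phytosulfokine, differed by 0.89 and 0.83, and low Pi raised it by 0.76 (SE 0.13, limma adjusted p = 0.0035). In all, low Pi raised 3 of the 10 hormone and peptide genes, ACS2, CYP707A1 and PSK5 (9.65% of all tested genes were called in that direction), and lowered 1, CLE40 (8.52%).

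CLE40 (AT5G12990), a signalling peptide of the root meristem, was low in all libraries. It had 1.09, 1.03 and 2.06 RPKM in *otu5* low Pi and 0.909 RPKM in 1 WT low Pi library while listed at 0 in the other 2, and it had 2.61, 3.51 and 3.36 RPKM in *otu5* control and 0.874, 1.07 and 2.38 RPKM in WT control. Low Pi lowered it by 1.18 (its log2 difference was -1.18, SE 0.29, limma adjusted p = 0.019).

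The remaining roles held fewer genes, and of these AGO3, CYP76C5, CYP716A2, CWLP and RNS1 fall under the naming rule while the others were named after their values were seen. AGO3 (AT1G31290), an ARGONAUTE that binds small RNAs, had 2.74, 4.69 and 2.66 RPKM in *otu5* low Pi, 0.42, 1.05 and 1.17 RPKM in WT low Pi, 5.02, 3.39 and 3.99 RPKM in *otu5* control and 0.403, 0.815 and 0.518 RPKM in WT control. GMI1, named for its induction by gamma irradiation and mitomycin C, differed by 0.76 in low Pi and 0.72 on control medium. Neither was called for low Pi in limma, also at an unadjusted p under 0.05. The same holds for *otu5* against WT, on either medium, of the 2 tested reporters of DNA methylation on a list of 5.

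Cytochrome P450 and lipid genes included CYP76C5 (AT1G33730) and CYP716A2 (AT5G36140). CYP76C5 had 1.73, 0.358 and 1.44 RPKM in *otu5* low Pi, 0.0906, 0.226 and 0.112 RPKM in WT low Pi, 3.89, 6.08 and 5.47 RPKM in *otu5* control and 0.131 and 0.106 RPKM in 2 WT control libraries, and was listed at 0 in the third. The difference was 1.27 in low Pi and 3.27 on control medium, and without *otu5* low Pi replicate 2 the smaller of these was 1.7. CYP716A2, of a family that oxidises triterpenes, had 6.11, 3.01 and 3.28 RPKM in *otu5* low Pi, 1.9, 0.815 and 0.0672 RPKM in WT low Pi and 1.79, 0.368 and 1.81 RPKM in *otu5* control, against 0.262 and 0.255 RPKM in 2 WT control libraries and a listed 0 in the third. SQE6, of the squalene epoxidase family, CYP79F1, a cytochrome P450 of glucosinolate synthesis, and ACC2, an acetyl-CoA carboxylase, differed by 1.32, 0.84 and 0.82 in low Pi and by 1.06, 1.13 and 1.07 on control medium.

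Among channel, pump and signalling genes, the aquaporin genes PIP2E and NIP2;1 differed by 1.39 and 0.98 in low Pi and by 1.25 and 1.5 on control medium. The calcium pump gene ACA13 (AT3G22910) differed by 0.69 and 1.08, the kinase gene CIPK9 by 0.83 and 0.89, the phosphatase gene TOPP6 by 0.66 and 0.91 and FLS2, the receptor of bacterial flagellin, by 0.6 and 0.8. Cell wall genes were XTH24, of the xyloglucan-modifying family, the expansin gene EXPA12, the laccase gene LAC12, the pectin acetylesterase gene PAE8 (AT4G19420) and CWLP, with differences of 0.62 to 1.12 in low Pi and 0.81 to 1.47 on control medium. The transcription factor genes HB22, NAC044, NAC103, PTF1, ESE3, LSH10 and LOL1 differed by 0.6 to 1.09 in low Pi and by 0.77 to 1.65 on control medium, and 0 of the 7 were called for low Pi in limma (1 higher and 2 lower at an unadjusted p under 0.05). Low Pi raised 3 of the 6 channel, pump and signalling genes and 1 of the 5 cell wall genes (9.65% of all tested genes were called in that direction). It lowered 0 in either group (8.52%).

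RNS1 was the single Pi starvation gene of the set, out of 15 on that list. RNS1 (AT2G02990), a ribonuclease that recovers phosphate from RNA, had 3.84, 7.85 and 5.09 RPKM in *otu5* low Pi, 3.75, 3.1 and 2.58 RPKM in WT low Pi, 1.53, 1.03 and 1.08 RPKM in *otu5* control and 0.327, 0.171 and 0.382 RPKM in WT control. In low Pi the lowest *otu5* library, at 3.84 RPKM, lay close to the highest WT library, at 3.75 RPKM. Low Pi raised RNS1 by 1.99 (SE 0.16, limma adjusted p = 6.2e-05), the largest rise among the 180 genes. Low Pi raised all 15 list genes over both genotypes, and 0 of the other 14 were called higher or lower in *otu5* on either medium in limma (0 in low Pi and 3 higher on control medium at an unadjusted p under 0.05). PAP20, of the purple acid phosphatases, and 5PTASE11, an inositol polyphosphate phosphatase, named after their values were seen, were raised by 0.59 (SE 0.14, limma adjusted p = 0.014) and 0.52 (SE 0.13, limma adjusted p = 0.022).

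The response to low Pi, averaged over both genotypes, was a difference that the choice of genes had not used. Its test does use the spread within groups, on which the rule's separation of libraries bore. The shares of genes called are therefore not free of the choice. Low Pi raised 57 of the 180 genes (31.7%), beside 1969 of all tested genes (9.65%), and lowered 9 (5.0%), beside 1738 (8.52%). The median change of the 180 genes was 0.12 (log2), beside -0.01 over all tested genes. The count of rises was 44 without WT control replicate 1, 59 without WT low Pi replicate 1 and at least 38 without any other library. It came to 38 when genes had to reach 5 RPKM, a filter that leaves fewer genes, and to 32, with 4 falls, when no filter was used. Of the 57 genes, 3 (DOGT1, AT2G36970 and AT4G36850, named for this) reached 1 RPKM in no control library and passed the filter through low Pi libraries alone, as did 84 of the 1969. In 4 of the 57, these 3 and AT5G61890, fewer than 3 control libraries reached 1 RPKM, as in 126 of the 1969. In 2 of the 9 lowered genes, AT2G30766 and CYP76C5, fewer than 3 low Pi libraries did, as in 41 of the 1738. These genes passed the filter only with the help of the medium where they were higher. The count of falls was 17 without WT low Pi replicate 3, 6 without *otu5* control replicate 2 or 3, and between 7 and 11 without each of the others.

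The largest rises after RNS1 and TH8 were in AT1G21520, UGT74E2 and AT5G61890. AT1G21520 had 7.67, 12.2 and 7.41 RPKM in *otu5* low Pi, 2.3, 3.11 and 6.03 RPKM in WT low Pi, 1.92, 3.15 and 2.72 RPKM in *otu5* control and 1.57, 0.674 and 0.754 RPKM in WT control, a rise of 1.55 in low Pi (SE 0.23, limma adjusted p = 0.002). AT5G61890 had 3.25, 3.98 and 2.43 RPKM in *otu5* low Pi, 0.694, 1.08 and 1.36 RPKM in WT low Pi, 0.829, 1.06 and 0.571 RPKM in *otu5* control and 0.167, 0.0678 and 0.0758 RPKM in WT control. Its rise of 1.41 is given without a test, because fewer than 3 control libraries reached 1 RPKM and low Pi libraries carried it past the filter. In both genes, *otu5* low Pi lay above all other libraries and *otu5* control overlapped WT low Pi.

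The 2 largest falls were in AT1G47395 and AT1G47400, neighbouring loci on chromosome 1 that were on the iron uptake list. AT1G47395 had 11.4, 6.81 and 11.4 RPKM in *otu5* low Pi, 6.79, 4.08 and 3.41 RPKM in WT low Pi, 41.8, 53.4 and 51.5 RPKM in *otu5* control and 22.7, 32.1 and 33.3 RPKM in WT control. AT1G47400 had 4.16, 2.32 and 5.03 RPKM in *otu5* low Pi, 1.11, 2.17 and 1.56 RPKM in WT low Pi, 17.5, 16.8 and 17.8 RPKM in *otu5* control and 11.4, 11.9 and 11 RPKM in WT control. In both genes every low Pi library lay below every control library, whatever the genotype, and the lowest *otu5* low Pi library was close to the highest WT one, at 6.81 against 6.79 RPKM and at 2.32 against 2.17 RPKM. The falls measured -2.41 (SE 0.18, limma adjusted p = 5.4e-05) and -2.31 (SE 0.16, limma adjusted p = 2e-05). Of the 8 other tested genes of that list, 0 had a positive genotype difference on both media, beside 7758 of the 20411 tested genes. Low Pi lowered 5 of these 8, beside 8.52% of all tested genes. IRT1, the main root iron transporter, had 11.4, 10.2 and 20.4 RPKM in *otu5* control, against 25.2, 33.7 and 25.1 RPKM in WT control, and at most 0.592 RPKM in any low Pi library.

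The other 3 falls of the naming rule were AT2G30766, CLE40 and CYP76C5. AT2G30766 had 1.68, 0.319 and 1.29 RPKM in *otu5* low Pi and 0.162 RPKM in 1 WT low Pi library while listed at 0 in the other 2, and it had 7.89, 11.1 and 10 RPKM in *otu5* control and 1.09 and 1.64 RPKM in 2 WT control libraries while listed at 0 in the third. Its fall of -1.95 is given without a test, because fewer than 3 low Pi libraries reached 1 RPKM and control libraries carried it past the filter. The locus overlaps 2 other loci in the RefSeq table, so its reads could be theirs. CYP76C5 passed the filter in the same way as AT2G30766, and its fall of -0.85 is likewise given without a test. Its call in the count of falls was lost with a pseudocount of 0.1. The call was also lost when replicate 1 of WT low Pi, replicate 2 or 3 of *otu5* control or replicate 1 of WT control was left out.

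Within each genotype fewer of the genes were called. In *otu5*, low Pi raised 31 of the 180 (4.81% of all tested genes were called in that direction) and lowered 8 (3.78%). In WT, low Pi raised 10 (2.55%) and lowered 2 (1.74%), the 2 iron-list loci. Each of these contrasts shares its libraries with both contrasts of the rule, so the counts are a description. The difference between the genotype-specific counts was not tested for the same reason. The *otu5* count of rises lay between 10 and 18 without any of the 3 *otu5* control libraries or *otu5* low Pi replicate 1 or 2, and between 26 and 45 without each of the others, and it was 8, with 4 falls, when no filter on low values was used. The count of 8 falls in *otu5* became 18 without WT low Pi replicate 1, 5 without *otu5* control replicate 3 and 13 with the replicate number as a block. The WT count of 10 rises became 1 with no filter, 21 with the replicate number as a block within WT (a fit added after seeing the data), 21 without WT low Pi replicate 1, 18 without *otu5* low Pi replicate 2, 16 without *otu5* low Pi replicate 3 and 2 without either WT low Pi replicate 2 or WT control replicate 3. It lay between 3 and 6 without *otu5* low Pi replicate 1, without replicate 3 of WT low Pi, without *otu5* control replicate 2 or 3, or without replicate 1 or 2 of WT control.

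By separation of libraries alone, all 3 low Pi libraries lay above all 3 control libraries for 59 of the 180 genes in *otu5* (14.1% of tested genes) and for 41 in WT (12.8%). They lay below for 47 in *otu5* (26.1% of the 180, beside 14.3% of tested genes) and for 3 in WT (12.5% of tested genes). These separations use the same libraries as the rule, so the counts are a description, and their difference between genotypes was not tested. The 47 include 5 of the 9 low-oxygen and sucrose genes, PDC1, SUS1, SUS4, HB1 and PCO2, which in limma's fit were not called for low Pi in either genotype. In the fit averaged over genotypes 0 of the 9 were called, and 1 was higher and 0 lower at an unadjusted p under 0.05.

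The largest genotype differences on both media were mostly in genes known by locus alone. AT5G24640 had 15.4, 14.9 and 8.59 RPKM in *otu5* low Pi, 0.742, 1.67 and 2.38 RPKM in WT low Pi, 5.95, 5.59 and 4.76 RPKM in *otu5* control and 0.713, 0.521 and 0.583 RPKM in WT control, with differences of 2.72 and 2.42. AT5G43570 had 17.5, 19.4 and 11.5 RPKM in *otu5* low Pi, 1.65, 2.57 and 9.65 RPKM in WT low Pi, 9.05, 8.35 and 4.57 RPKM in *otu5* control and 1.58, 0.965 and 0.719 RPKM in WT control, with differences of 2.0 and 2.28. In the first of these *otu5* low Pi stood above all other groups, and in the second WT low Pi replicate 3 lay above the *otu5* control libraries.

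AT2G04050, AT2G16005 and AT2G41730 had a similar pattern. AT2G04050 had 8.33, 11.4 and 4.41 RPKM in *otu5* low Pi, 0.997, 0.622 and 1.97 RPKM in WT low Pi, 2.19, 2.7 and 2.13 RPKM in *otu5* control and 0.447, 0.35 and 0.131 RPKM in WT control, and low Pi raised it by 1.26 (SE 0.24, limma adjusted p = 0.0059). AT2G16005 had 19.7, 5.53 and 11 RPKM in *otu5* low Pi, 2.53, 0.765 and 1.23 RPKM in WT low Pi, 5.71, 3.77 and 1.89 RPKM in *otu5* control and 0.442, 0.718 and 0.602 RPKM in WT control. AT2G41730 had 46.5, 52.9 and 24.1 RPKM in *otu5* low Pi, 4.81, 8.33 and 16.1 RPKM in WT low Pi, 17.3, 16.6 and 15.7 RPKM in *otu5* control and 5.07, 4.18 and 4.06 RPKM in WT control. All 3 were highest in *otu5* low Pi and lowest in WT control by their means.

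AT4G04223, AT3G29970, AT4G32950 and AT1G65370 had no call for low Pi. AT1G65370 had 61.7, 54.7 and 72.4 RPKM in *otu5* low Pi, 23.4, 22.8 and 23.5 RPKM in WT low Pi, 58.4, 72.8 and 79.6 RPKM in *otu5* control and 22.9, 26.2 and 28.7 RPKM in WT control, with differences of 1.41 and 1.42. AT3G29970 had 49.9, 88.4 and 45 RPKM in *otu5* low Pi, 7.14, 28.3 and 36.5 RPKM in WT low Pi, 82.1, 98.4 and 90.5 RPKM in *otu5* control and 15.3, 23.4 and 27.1 RPKM in WT control. The differences of AT4G04223 were 1.7 in low Pi and 2.0 on control medium, and those of AT4G32950 were 1.52 and 1.54. AT5G09570 (1.65 and 1.51), AT2G38823 (1.86 and 1.47), AT4G26460 (1.59 and 1.4), AT1G29100 (1.49 and 1.53) and AT3G54530 (2.51 and 1.89) were also among the 25 genes with the largest smaller difference, given here in low Pi and then on control medium.

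AT1G74453 and AT4G27450 were, with HB1, the genes of the set with the highest level. AT1G74453, a small nucleolar RNA locus under 300 bp, had 1860, 1320 and 2000 RPKM in *otu5* low Pi, 781, 1220 and 722 RPKM in WT low Pi, 1120, 1700 and 1440 RPKM in *otu5* control and 375, 915 and 767 RPKM in WT control. Values of so short a locus in polyadenylated RNA are uncertain. AT4G27450 had 686, 623 and 731 RPKM in *otu5* low Pi, 320, 463 and 527 RPKM in WT low Pi, 880, 1090 and 990 RPKM in *otu5* control and 426, 526 and 493 RPKM in WT control.

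Some of the 180 genes lie side by side in the genome. There were 7 directly adjacent pairs and 1 pair with 1 gene between, which involve 15 genes. Beside NRT2.1 with NRT2.2 and the 2 iron-list loci, these were AT1G77145 with AT1G77150 and AT1G77150 with AT1G77160 on chromosome 1, AT2G17845 with AT2G17850 on chromosome 2, CWLP with AT3G22121 and AT3G54510 with AT3G54530 on chromosome 3, and AT5G36130 with CYP716A2 on chromosome 5. CWLP (AT3G22120) had 89.7, 88 and 79.2 RPKM in *otu5* low Pi, 30.9, 44.6 and 54 RPKM in WT low Pi, 94.3, 127 and 122 RPKM in *otu5* control and 41.5, 39.7 and 40.5 RPKM in WT control, and its differences of 1.01 and 1.47 stood beside 0.98 and 1.51 for AT3G22121. These 2 loci overlap, and use of strand is not stated, so their reads cannot be told apart. AT5G36130 had differences of 1.91 and 1.44 beside 1.87 and 1.33 for CYP716A2. In all, 46 of the 180 genes overlap another annotated locus. No share over all tested genes stands beside the counts of overlaps and adjacent pairs, so neither is read as a trait of the set.

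AT2G17850 had 174, 150 and 198 RPKM in *otu5* low Pi, 62.1, 115 and 116 RPKM in WT low Pi, 266, 320 and 264 RPKM in *otu5* control and 74.8, 137 and 108 RPKM in WT control. Its neighbour AT2G17845 had 10.1, 9.57 and 13.9 RPKM in *otu5* low Pi, 4.02, 7.1 and 7.78 RPKM in WT low Pi, 17.2, 16.9 and 17.1 RPKM in *otu5* control and 4.72, 6.41 and 7.23 RPKM in WT control. Both had WT replicate 1 lowest on each medium and *otu5* control highest. AT1G77145, AT1G77150 and AT1G77160 had differences of 0.67, 1.65 and 0.74 in low Pi and 0.85, 3.52 and 1.75 on control medium.

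Of the tissue markers, LHCB2.2 (AT2G05070), a chlorophyll-binding protein of photosystem II, was in the set. LHCB2.2 had 29.2, 30.8 and 20.7 RPKM in *otu5* low Pi, 12.9, 16.5 and 17.2 RPKM in WT low Pi, 33.6, 31.6 and 35.7 RPKM in *otu5* control and 14.4, 18.3 and 19.8 RPKM in WT control. Of the other 26 tested photosynthesis genes, 2 were called higher in *otu5* in low Pi and 10 on control medium, with 4.00% and 4.85% of all tested genes called. Of the 16 other root markers tested beside NRT2.1, 0 were called higher in *otu5* on either medium in limma, also at an unadjusted p under 0.05. Called lower in *otu5* were 1 in low Pi (5.91% of all tested genes were) and 1 on control medium (5.52%). At an unadjusted p under 0.05, 7 were lower in low Pi and 2 on control medium.

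No gene of the set came from the lists of detoxifying oxidases, reductases, glucosyltransferases and exporters (11 tested genes), indolic defence compounds (12), salicylate and basal defence (9), jasmonate and ethylene defence (9), heat shock (10), reporters of DNA methylation (2), Polycomb-regulated flowering (6), ubiquitin (8), or anthocyanin and flavonoid synthesis (9). The ubiquitin list had 2 genes called higher in *otu5* in low Pi and 1 called lower on control medium. The other 8 lists, with 68 tested genes, had 0 called higher on either medium in limma. Called lower in low Pi were 3 Polycomb, 1 jasmonate and 1 anthocyanin list genes. On control medium it was 1 each of the indolic, Polycomb and anthocyanin lists. Of all tested genes, 4.00% were called higher and 5.91% lower in low Pi, and 4.85% and 5.52% on control medium. At an unadjusted p under 0.05, 4 of the 68 were higher and 14 lower in low Pi. On control medium 4 were higher and 8 lower. With 1 tested flower gene and 0 tested seed genes, the flower and seed lists gave no gene of the set either.

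Near the limit of the rule, the genes just inside were AT3G54510, AT1G47400 and BCAT-2, each with a difference of 0.58 on control medium and of 0.96, 1.01 and 0.84 in low Pi. BCAT-2 (AT1G10070) had 2.19, 2.55 and 1.47 RPKM in *otu5* low Pi, 0.572, 0.994 and 1.26 RPKM in WT low Pi, 1.08, 1.16 and 1.22 RPKM in *otu5* control and 0.626, 0.458 and 0.749 RPKM in WT control. Just outside, with all libraries separated, were AT5G47060, FBA6 and CYP71A25. FBA6, a fructose-bisphosphate aldolase of glycolysis, had 222, 238 and 204 RPKM in *otu5* low Pi, 125, 152 and 170 RPKM in WT low Pi, 225, 237 and 220 RPKM in *otu5* control and 137, 150 and 146 RPKM in WT control, with differences of 0.57 in low Pi and 0.65 on control medium. AT5G47060 differed by 0.58 in low Pi (below the limit before rounding) and by 0.66 on control medium, and CYP71A25 by 0.57 and 0.61.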

How the data were processed

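The series has 36 samples. The 12 RNA libraries were used, and the 8 methylation and 16 chromatin samples were not analysed here. The authors deposited 1 table of RPKM values for 33557 genes with 1 column per library, and no read counts, so depth is unknown and no counting interval is given. Per the submitters' processing notes, TopHat2 2.0.4, Cuffdiff and the TAIR10 build were involved; what each was used for is not stated. Scaling between libraries, use of strand and the treatment of shared reads are not given in the sources used here. Of the identifiers, 32810 (97.8%) matched RefSeq's TAIR10.1 gene table, the source of names, locus lengths and gene order.

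The 20411 genes past the filter of the rule were fitted in R 4.3.3 by limma 3.58.1 on log2(RPKM + 0.5), using 4 group means, trend and robust moderation, and Benjamini-Hochberg adjustment over these genes, called at 0.05. Changes on this scale understate those of low genes. The contrast of low Pi with control, averaged over genotypes, is orthogonal to both contrasts of the rule. Its test still uses the spread within groups, on which the rule's separation of libraries bore. The fit was tested on simulated data.

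The 180 genes and the 18 gene lists (249 genes) were chosen with earlier results of these data known, and the 11 role groups after values were seen. The naming rule took OTU5, the 25 genes with the largest smaller difference, genes on a list, the 5 largest rises and 5 largest falls in low Pi, genes at the rule's limit, neighbouring genes, and the 3 highest levels. Alternatives were another pseudocount (1 and 0.1), no filter or one of 5 RPKM, quantile normalization, a difference of at least 1, limma without trend and robust estimation, the replicate number as a block and each library left out. WT low Pi and WT control libraries of the same number had correlated deviations from their group means (0.114 to 0.259 in 3 pairs). The 6 pairs of different number (-0.175 to -0.0203) are not separate evidence, because deviations cancel out within a group. The numbers were taken to pair these 2 groups, from the data and not from the labels, but no other 2 groups. Pairs elsewhere came as high, so this pairing is uncertain. *otu5* low Pi replicate 3 with WT low Pi replicate 1, of different number, had 0.254. *otu5* low Pi replicate 2 had 0.227 with WT control replicate 2 and 0.204 with WT low Pi replicate 2. The main fit did not use the pairing.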

Additional observations from a re-analysis of the deposited data

Results flagged for a closer look

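AT1G77150 was singled out because low Pi went with opposite changes in the genotypes, with no overlap between the media in either. It had 29.8, 19.1 and 28.3 RPKM in *otu5* low Pi, against 31.5, 50.1 and 35.7 RPKM in *otu5* control, a log2 difference of -0.59 (SE 0.35, limma adjusted p = 0.34). In WT it had 4.99, 7.47 and 12.3 RPKM in low Pi, against 1.92, 4.68 and 2.61 RPKM in control, a log2 difference of 1.28 (SE 0.35, limma adjusted p = 0.071). The difference between the genotypes was not tested, because it is the difference of the contrasts the rule used. The locus is under 300 bp, a length at which RPKM is uncertain.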

How the results depend on the processing

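Without a filter on low values, the genes raised by low Pi numbered 32 (57 with the filter) and those lowered 4 (9). In WT the rises then numbered 1 (10), and in *otu5* the rises numbered 8 (31) and the falls 4 (8). With the filter at 5 RPKM the WT rises numbered 6, and with a pseudocount of 0.1 the *otu5* falls numbered 5. A rule asking for a difference of at least 1 left 50 genes, and the other settings left 127 to 209. Leaving out a library gave 144 to 247 genes for the rule, 38 to 59 rises and 6 to 17 falls over both genotypes, 2 to 21 rises and 2 to 3 falls in WT, and 10 to 45 rises and 5 to 18 falls in *otu5*. The cause was not tested. The replicate number as a block over all libraries gave 13 falls in *otu5* and moved no other of these counts by over 1.5 times, and the block within WT alone (added after seeing the data) gave 21 rises in WT and left its 2 falls. For the list genes outside the set (repeats chosen after seeing the data), the low-oxygen genes called higher in low Pi numbered 2 (0) with the block or quantile normalization and 1 with the filter at 5 RPKM. The mitochondrial stress genes called higher on control medium numbered 1 (2) with the block or quantile normalization and 0 without trend and robust estimation. Without a filter, the low-oxygen and mitochondrial stress genes called on control medium numbered 1 (5) and 0 (2). Over all groups, libraries with the same number had deviations correlated at -0.152 to 0.259 over 18 pairs, 6 of them over 0.1, against -0.205 to 0.254 for different numbers. No result changed direction in any alternative. Among named genes, 61 of the repeats of low Pi calls lost the call and 350 kept it. Of the repeats of the smaller genotype difference, 22 moved by more than the spread between replicates, all but 2 of them with another pseudocount. RPKM gives no depth, so the counting error of low genes such as CYP76C5 and CLE40 could not be estimated.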
